A study of Homo sapiens with 4 samples.

Results

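Binding of tagged SNAIL1 was examined at 5 genes, SNAI1, SNAI2, ZEB1, ZEB2 and TWIST1. They encode the best known transcription factors of epithelial-mesenchymal transition (EMT), in which epithelial cells lose their junctions and become motile. They were chosen by name. Every line of the 4 deposited peak lists was kept whose summit, the position of highest read coverage in a peak, lay within 10 kb of an hg19 gene body. This gave 1 peak of 2177, at the start of SNAI1 in 1 of the 2 induced libraries, induced 2. In that library 0.906% to 7.63% of genome windows as long as those of the 5 genes held a summit, and its mean density gives 0.204 peaks over the 5 windows. SNAI2, ZEB1, ZEB2 and TWIST1 had no peak in any of the 4 libraries.

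The lists come from chromatin immunoprecipitation (ChIP-seq) with an anti-HA antibody in LS174T, an established human colorectal adenocarcinoma line. All cells carried a transgene for murine SNAIL1 with a hemagglutinin (HA) tag that doxycycline switches on (pN1-LS174T Snail1-HA). For induced 1 and induced 2 the cells received doxycycline at 0.1 mg/ml during 6 h before fixation, and for uninduced 1 and uninduced 2 they received none. The design text calls them biological replicates. The sources used here do not say whether they were separate cultures or whether the line is a clone. A test across libraries could thus measure only the spread between these libraries. With 1 member peak in all, the p-values of the tests below were fixed and measure no spread. The antibody reads the tagged murine protein and not the SNAIL1 that the cells make from their own gene. Peak lists hold no expression values, so neither the identity of the line nor the activity of these genes could be checked.

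SNAIL1, the product of SNAI1, and SLUG, the product of SNAI2, are zinc-finger repressors that bind E-boxes, short sequences of the kind CAGGTG. ZEB1 and ZEB2 are zinc-finger and homeodomain proteins that recognise the same kind of E-box, and TWIST1 is a basic helix-loop-helix factor that binds related ones. All 5 act on epithelial genes such as that of E-cadherin, and they are known to act on one another's genes: SNAIL1 has been described to bind and repress its own promoter and to raise ZEB1 levels. Peaks at these genes therefore address whether tagged SNAIL1 occupied its own human gene and the other genes of the network within 6 h.

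RefSeq promoter windows, each from 250 bases before to 50 bases after a transcript start (build GRCh38.p14), were matched by symbol for 2 of the 5 genes, ZEB1 with 7 windows and ZEB2 with 1. SNAI1, SNAI2 and TWIST1 had no window and were not searched for E-boxes, nor was the sequence of the SNAI1 peak. The words CAGGTG and CACCTG, which are the same E-box read on either strand, occurred 4 times in the ZEB1 windows. They are shown because they are the only E-boxes of this kind found in the members' windows. Each is given 5′ to 3′ on the plus strand as 30 bases, with the E-box in capitals. Distances are those of its first base from the start.
ZEB1 E-box 57 bases before the start at 31318417, chr10:31318348-31318377: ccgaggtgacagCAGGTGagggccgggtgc
ZEB1 E-box 242 bases before the start at 31319216, chr10:31318966-31318995: ccccaccaCACCTGaggaaaacttttccct
ZEB1 E-box 85 bases before the start at 31319216, chr10:31319119-31319148: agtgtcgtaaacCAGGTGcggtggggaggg
ZEB1 E-box 33 bases after the start at 31319216, chr10:31319236-31319265: tggcggatggcccCAGGTGtaagcgcagaa

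The word was in 2 of the 7 ZEB1 windows and not in the ZEB2 window. Over all 35116 promoter windows of that table, 20.6% held it, and 0.635% held it 3 or more times, as the ZEB1 window at 31319216 did. Of the 30 genes with 7 windows each, 17 had it in at least 1 of them. How many of these genes held it 3 or more times in 1 window was not counted. The 0.635% is a share of single windows, and ZEB1 had 7. Of 31 other EMT regulators and SNAIL1 partners, such as TWIST2, TCF3, GSC and PRRX1, 24 were matched and 4 of these held the word, against 24.1% of all genes with a window. A match describes the letters only. These positions are of another build than the peaks and were not set against peak coordinates.

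SNAI1 lies on chromosome 20 from 48599513 to 48605420 in hg19 and is known to be transcribed towards higher positions. The gene bodies used here were set by the selection rule and not checked against an hg19 annotation, and distances to a gene start rest on them. Induced 2 listed 1 peak there, from 48599068 to 48599548. Its summit at 48599367 lay 146 bp before the gene start. The peak reached from 445 bp before the start to 36 bp inside the gene, so that most of its 481 bp lay just upstream of the gene. No library listed a summit inside the SNAI1 gene body. Induced 1, uninduced 1 and uninduced 2 listed no peak in the whole window of 25908 bp.

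**Figure D1:**
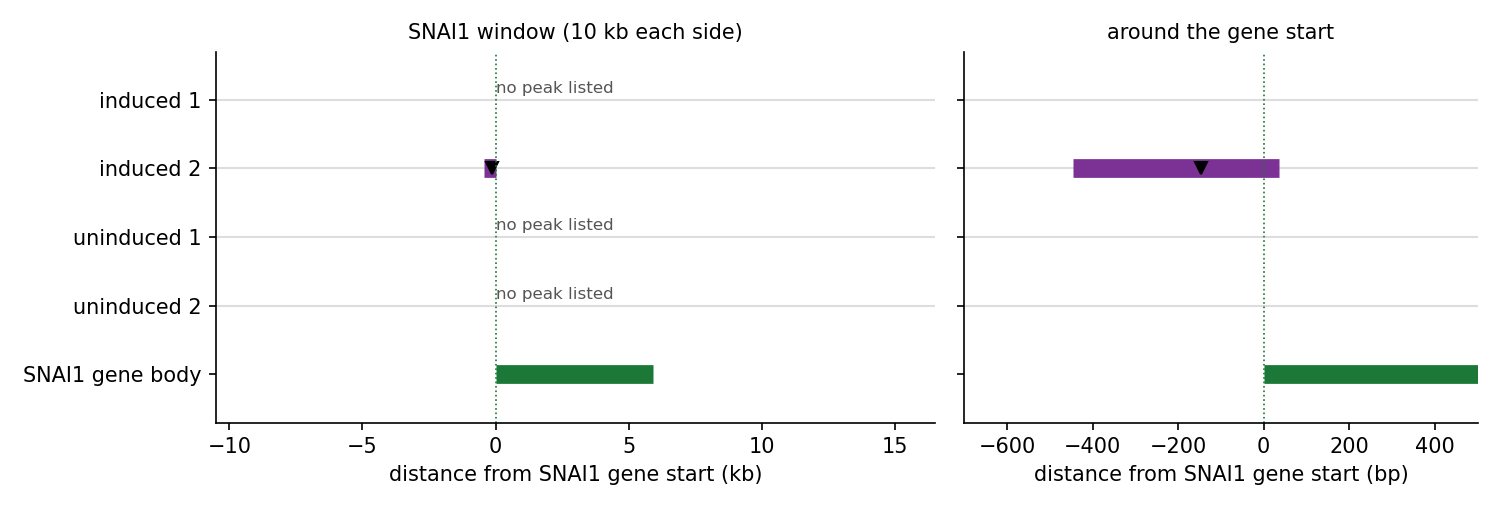
Peaks within 10 kb of SNAI1 in each library, by distance from the gene start (left in kb, right in bp). The purple bar is the peak of induced 2 from 445 bp before to 36 bp after the gene start, the triangle its summit at 146 bp before it, and the green bar the gene body. The other 3 libraries have no peak listed.

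The SNAI1 peak was enriched 7.19-fold over its local background, with a −log10 q of 18.8. These are the peak caller's own values for that peak. The list of induced 2 had a median fold of 4.91, and its weakest peak a −log10 q of 1.85. Among the 1338 peaks of induced 2 the SNAI1 peak ranked 223rd by fold, at percentile 83.4. On chromosome 20 it ranked 7th of 41.

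The read pileup at the SNAI1 summit, recovered from the fold and p of the peak, was 39 reads (exact 95% Poisson interval 27.7 to 53.3, counting error only). The median over the list was 35 reads. By pileup the peak stood at percentile 62.8, lower than by fold, and by −log10 p at percentile 74.1. The local background at SNAI1 was 4.57 reads, against a list median of 6.33 and a lowest value of 4.15. Only 8.74% of the peaks of that list had a background as low or lower. With 481 bp the peak was wider than most, at percentile 87.0, where the list median was 336.5 bp.

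**Figure D2:**
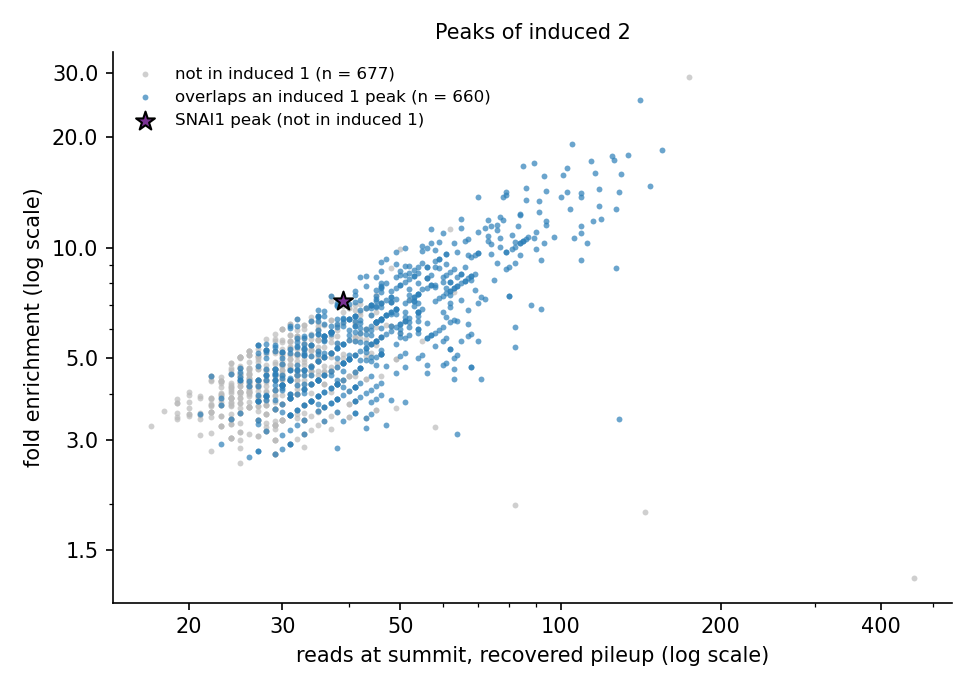
Fold enrichment against reads at the summit for every peak of induced 2, both on log axes. Blue points overlap a peak of induced 1, grey points do not, and the star is the SNAI1 peak at 39 reads and 7.19-fold, which lies near the upper edge of the fold seen at that pileup.

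The SNAI1 peak was not shared between replicates. No peak of induced 1 overlapped it by 1 bp or more, and the nearest summit of induced 1 lay 742 kb beyond the gene's end. Across induced 2, 49.3% of peaks overlapped a peak of induced 1. Of the 222 other peaks with a fold at least that of SNAI1, 213 did (95.9%, exact 95% interval 92.4 to 98.1), and 9 did not. These 222 peaks had 37 to 174 reads at the summit, so SNAI1 with 39 stood near their lower end. The SNAI1 peak was 10th by fold among the 678 peaks found in induced 2 but not in induced 1, whose median fold was 4.38. The next of these above and below it had folds of 7.23 and 7.18.

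Read number gave a different comparison from fold. Of the 100 peaks of induced 2 closest to SNAI1 in fold (6.60 to 7.75, with 35 to 92 reads), 81 were also in induced 1 (81.0%, 71.9 to 88.2). Of the 100 closest in pileup (37 to 41 reads, with 2.86-fold to 7.46-fold), 58 were (58.0%, 47.7 to 67.8). SNAI1 stood near the upper end of that fold range, and neither set was matched on both measures. All 6 other chromosome 20 peaks with a higher fold than SNAI1 were in both lists, and these had 54 to 147 reads. Peaks of 1 library share that library, so the intervals cover counting error only.

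**Figure D3:**
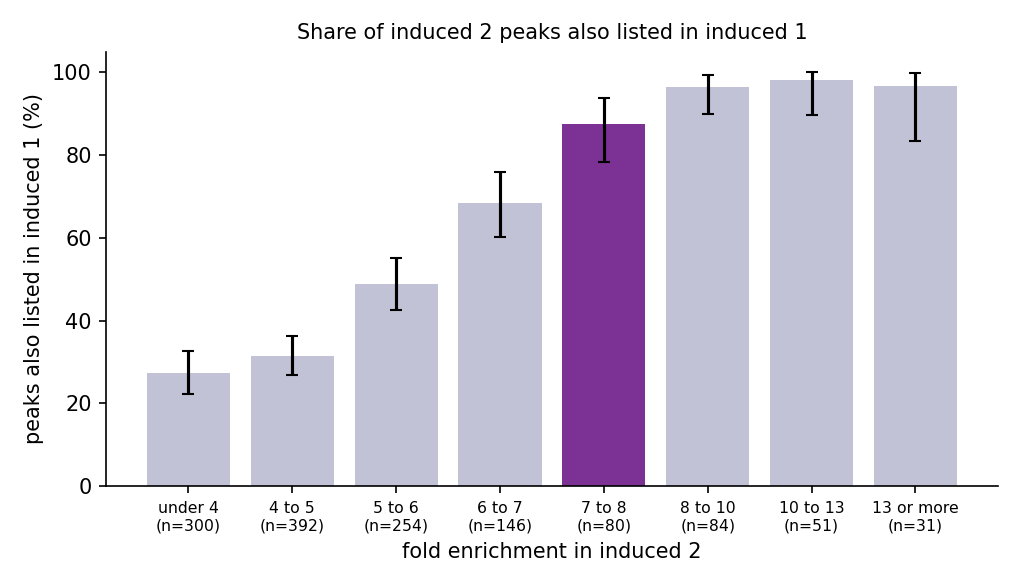
Share of induced 2 peaks that overlap a peak of induced 1, by fold enrichment in induced 2, with exact 95% binomial intervals as error bars and the number of peaks under each bar. The purple bar is the group of 7-fold to 8-fold that holds the SNAI1 peak, in which 70 of 80 peaks were shared (87.5%).

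The level at which a SNAI1 peak would have stood in induced 1 can be set beside its list. The 661 peaks of induced 1 shared with induced 2 had 1.23 times as many summit reads there in total, with ratios of single peaks from 0.976 (10th percentile) to 1.58 (90th percentile). These sites had enough reads to be listed in both libraries, which SNAI1 did not, so the ratio may not hold for it. At 1.23 the 39 reads of SNAI1 would correspond to 47.9 reads, and the lower end of its interval to 34.1. At the 10th percentile the 39 reads would correspond to 38.0. The lower end of the interval, 27.7 reads, would correspond to fewer than 27.7 at the 10th percentile ratio of 0.976. That is under the lowest pileup in induced 1, so these levels do not show that a SNAI1 peak would have been listed there. Induced 1 listed peaks down to 28 reads, and 336 of its 823 peaks (40.8%) had 47.9 reads or fewer, 57 of them 34.1 or fewer. Among its 48 peaks at the lowest background of 6.00 reads, the lowest pileup was 29 and 30 were at or under 47.9. The lists give no reads for a place without a peak, so the coverage of induced 1 at SNAI1 is unknown, and a missing peak is not shown to be absent binding.

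Over all 5 genes, the libraries held 0, 1, 0 and 0 member peaks for induced 1, induced 2, uninduced 1 and uninduced 2. The mean was 0.50 ± 0.71 (SD, n = 2) in induced and 0 ± 0 (SD, n = 2) in uninduced cells. The difference of 0.50 was smaller than the SD of the induced replicates, but 1 peak in 1 of 2 induced libraries fixes both values. The exact two-sided permutation test gave p = 1.0. With 1 peak in all, every division of the 4 libraries gives a difference of the same size, with either sign. No other two-sided p was thus possible, and the test is uninformative. The induced and uninduced groups overlapped at 0. The uninduced lists held only 5 and 11 peaks in all, so 0 was likely there for any 5 such windows. Without induced 2 the difference was 0, and without induced 1 it was 1.0.

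For scale, the genome up to the furthest peak of each chromosome was divided into windows as long as each gene's. In induced 2, 1.06% of windows of the SNAI1 length held a summit. The shares for the other genes' lengths were 0.965% for SNAI2, 7.63% for ZEB1, 5.49% for ZEB2 and 0.906% for TWIST1. In induced 1 they were 0.658% for SNAI1, 0.601% for SNAI2, 4.99% for ZEB1, 3.53% for ZEB2 and 0.565% for TWIST1. At the mean density of each list, the 459 kb of the 5 windows would hold 0.204 peaks of induced 2 and 0.125 of induced 1. For uninduced 1 and uninduced 2, with 5 and 11 peaks in all, these windows would hold 0.00076 and 0.0017. These windows are not matched for gene content, so the 1 gene of 5 with a peak is set beside them as a description only.

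ZEB1, on chromosome 10 from 31607424 to 31818742, is the longest of the 5 genes and had no peak in its 211319 bp or within 10 kb of it. Its nearest summit was 5760 kb away in induced 2, beyond the gene's higher end, in a peak of 5.05-fold at 37578785 to 37579108 that induced 1 lacked. In induced 1 it was 15257 kb away, in a 6.33-fold peak at 47075295 to 47075657 that induced 2 also listed, at 8.16-fold. Neither uninduced library had a peak on chromosome 10. Induced 1 and induced 2 held 28 and 46 peaks on that chromosome, none within 1 Mb of ZEB1.

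ZEB2, on chromosome 2 from 145141942 to 145277958, was likewise without a peak. The nearest summit in induced 2 lay 3500 kb beyond its higher end, in a weak peak of 3.89-fold (24 reads) at 148778080 to 148778341. The nearest in induced 1 lay 12582 kb away on the other side, in a 3.61-fold peak (34 reads). The nearest peak in each uninduced library was the same site, 91002 kb away, with 4.73-fold enrichment in uninduced 1 and 8.08-fold in uninduced 2. Chromosome 2 held 48 and 78 peaks in the induced lists.

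SNAI2, the closest relative of SNAI1 among the 5 (chromosome 8, 49830239 to 49833999), had no peak within 1 Mb in any library. The nearest summits lay 7701 kb away in induced 1, in a 4.53-fold peak, and 3481 kb away in induced 2, in a 5.24-fold peak, on opposite sides of the gene. Neither of these 2 peaks was in the other induced list. No uninduced peak fell on chromosome 8.

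TWIST1 (chromosome 7, 19155091 to 19157295) is the shortest of the 5 genes. Its nearest summit was 1667 kb away in induced 2, in a 4.83-fold peak at 20824480 to 20824765 found in that library alone. In induced 1 the nearest was 2827 kb away, at 21984238 to 21984560, a site that also had a peak in induced 2, of 7.28-fold in the first library and 10.96-fold in the second. Uninduced 1 had no peak on chromosome 7, and the nearest of uninduced 2, a 1.32-fold peak, was 42812 kb away.

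**Figure D4:**
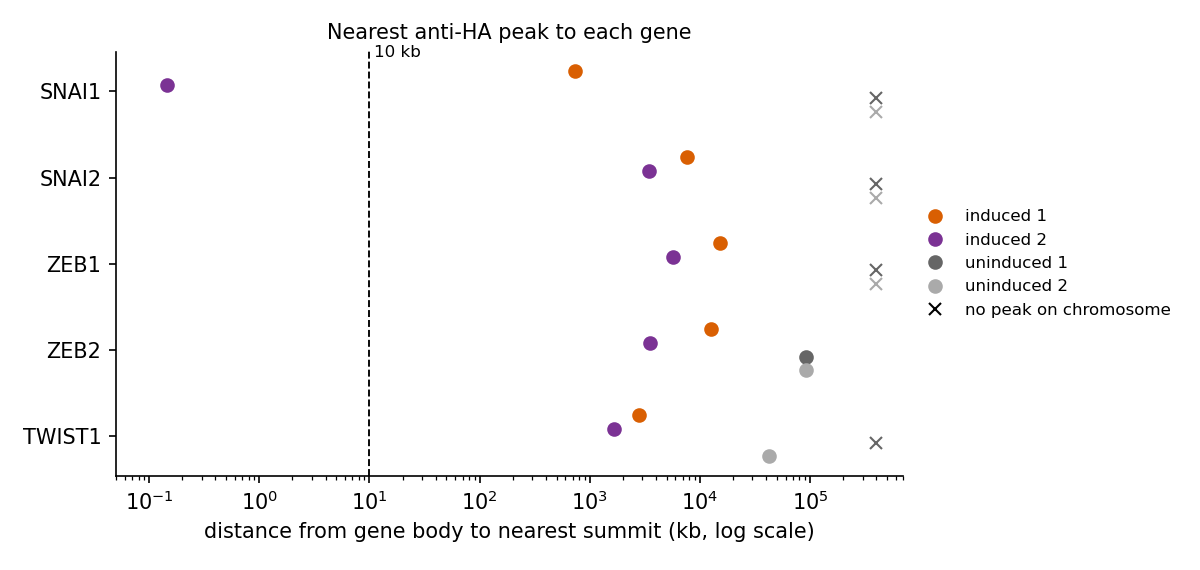
Distance from each gene body to the nearest summit in each library, in kb on a log axis, with crosses at the right where a library has no peak on that chromosome. The SNAI1 point of induced 2 at 0.146 kb is left of the dashed 10 kb line and every other point lies at 742 kb or more.

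Of the 5 genes, SNAI1 alone had any peak within 1 Mb of its gene body, 4 in induced 2 and 1 in induced 1. At the mean density of the lists these 5 regions would hold 4.59 and 2.82 peaks. Besides the peak at the gene start, induced 2 listed summits 286 kb before the SNAI1 start (5.60-fold, 35 reads), 387 kb after it (4.36-fold, 28 reads) and 748 kb after it (5.08-fold, 50 reads). The last was the only site of the 4 that induced 1 listed, at 5.96-fold and 82 reads. The peak at the gene start had the highest fold of these 4 sites in induced 2 and the second highest number of reads.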

How the data were processed

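Per the submitters' processing notes, Trimmomatic 0.36, BWA 0.7.15 and MACS2 2.1.1.20160309 were used with hg19; the sources used here do not give their settings or the control libraries. Per the labels' protocols, chromatin was sheared to 100 to 550 bp and read as 50 bp single reads. The authors deposited 1 peak list per library, with fold enrichment (a ratio), −log10 p, −log10 q and a score for each peak. The deposited score equalled 10 times the −log10 q, rounded down, at all peaks. The authors' lists held 823, 1338, 5 and 11 peaks, and gave no read totals.

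Groups and numbers came from the titles. Pileups were solved from the fold and p, with MACS2's pseudocount of 1. Each is the whole number whose recomputed −log10 p came closest to the listed one. Recomputed and listed −log10 p differed by less than 0.0005 for all peaks. Those of induced 1 are given unscaled; for peak calling they had been divided by 1.40, a ratio recovered in the same step. On simulated peaks 100% were recovered (197 unscaled, 179 scaled). These were made with the same formula, so this checks the solving step and not how MACS2 computed its values. Overlap meant 1 bp or more. Intervals are exact (Clopper-Pearson for shares), at 95%. Python 3.11.15 and scipy 1.17.1 were used. All 5 genes were named, each with its nearest summit in every list. The genes, the list of other regulators and the tests were chosen with earlier results of these data known, and the peaks set beside SNAI1 by fold or pileup were chosen after seeing it. Counts of peaks at the other regulators were not made, since no hg19 annotation was used. Alternatives varied the window, filters, overlap, ranking and libraries.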

Additional observations from a re-analysis of the deposited data

How the results depend on the processing

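The difference in member peaks between induced and uninduced libraries was 0.50 with windows of 10, 50 and 100 kb, with any part of the peak counted, with only peaks of 5-fold or more, and with only those whose −log10 q was 5 or more. It was 0 with the gene bodies alone, because the only summit lies before the SNAI1 start. The settings that kept 0.50 could give no other value. The 1 peak has 7.19-fold and a −log10 q of 18.8, and the next summit lies 286 kb from SNAI1. Leaving out 1 library gave 0 to 1.0: 0 without induced 2, which holds the peak, and 1.0 without induced 1. With the replicate block it was 0.50 (exact sign-flip p = 1.0, the only value that pair differences of 0 and 1 allow); since sites without a peak have no listed value, whether the numbers pair the libraries could not be checked. The number of member sites shared by the induced lists was 0 under each overlap rule, which follows from induced 1 having no member peak. SNAI2, ZEB1, ZEB2 and TWIST1 had 0 peaks under the 4 alternatives run for single genes. No other count was possible, since their nearest summits lay 1667 kb or more away. Read totals are unknown, so the depth at which a weaker peak at these genes would be listed is not known either.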
